A study of Homo sapiens with 24 samples.

Results

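The arrays described here compare RNA recovered by biotinylated baits that have no intended target with RNA extracted from whole cells. The 14 control arrays of the 24 in the series were taken by their labels. In 6 of them, 3 each for the non-targeting sequences NC1 and NC2, RNA was pulled down with the biotinylated control after transfection into DU145 cells, a long-established line derived from human prostate cancer. In the other 8, 4 each for NC1 and NC2, total RNA came from DU145 cells given the same control as a plain microRNA mimic. No sample is an untransfected culture, and every array of either kind carries a transfected control duplex. The study examined what the microRNA miR-638 binds and changes, and these controls are its background.

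Pulldown with a biotinylated microRNA rests on streptavidin beads, which hold the biotin on a transfected duplex and whatever RNA stays attached to it. A microRNA acts inside an Argonaute protein that pairs its seed with messenger RNAs, and the pulldown is meant to keep those pairs. Beads also hold RNA that sticks to them or to the bait through proteins, so non-targeting baits measure what is recovered without an intended target.

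Every level below is a log2 intensity after background correction and quantile normalization of all 24 arrays together, and a difference is pulldown minus mimic. Normalization gives every array the same distribution of values, so more of one RNA cannot be told apart from less of the others, nor fewer cells from less RNA per cell. The pulldown and mimic sets are separate transfections and separate arrays, so the RNA source and the experiment cannot be told apart. Whether replicate numbers stand for separate cultures is not labelled, so the p-values reflect only array-to-array spread that could be technical.

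Signal was seen over the same share of the array in both kinds of RNA: 43.6% to 47.1% of the 47323 probes were detected on the mimic arrays and 45.3% to 47.8% on the pulldown arrays. The first principal component of the 14 arrays held 63.8% of the variance and placed all pulldown arrays on one side and all mimic arrays on the other. The second held 13.2% and separated mimic replicates 1 and 2 from 3 and 4 for both control sequences. For that reason the 5842 of 12882 genes (45.4%) that differed between those pairs of mimic replicates were set aside, and 7040 genes were kept. One pulldown array stood apart: NC1 pulldown replicate 2 lay at least 1 log2 unit above every other pulldown array for 161 of the kept genes, against 0 to 5 for each of the others. Among the cell type markers, EPCAM, CDH1 and 4 of 5 keratins were detected on most arrays and KRT5, a basal keratin, was detected on none; VIM, a mesenchymal filament protein, was bright, at means of 13.78 on the mimic and 14.11 on the pulldown arrays. Of the 7 luminal prostate markers with a probe, SLC45A3 was detected on most arrays and 5 on none. The blood markers CD14 and LYZ were detected on most arrays, and PTPRC, the defining leukocyte marker, on none.

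Of the 7040 kept genes, 4702 (66.8%) differed between pulldown and mimic at a limma adjusted p under 0.05. They were 2555 higher (36.3%) and 2147 lower (30.5%), with a median difference over all kept genes of 0.05. With no genes set aside, 8503 of 12882 (66.0%) were called. At least 2-fold differences were fewer: 1121 genes (15.9%), of which 698 were higher (9.91%) and 423 lower (6.01%). For 1433 genes (20.4%) all 6 pulldown arrays lay above all 8 mimic arrays, and for 1253 (17.8%) all lay below. The balance of directions depends on the scaling: with median scaling in place of quantile normalization the median over all kept genes was -0.16, and 39.7% of the called genes were higher, against 54.3% here. Among the called genes at least 2-fold apart that share was 47.5% against 62.3%. Directions of groups below are therefore best read against the median of all genes, and each change of sign under that scaling is given. Counts of groups are best read against the 36.3% higher and 30.5% lower of all kept genes.

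**Figure D1:**
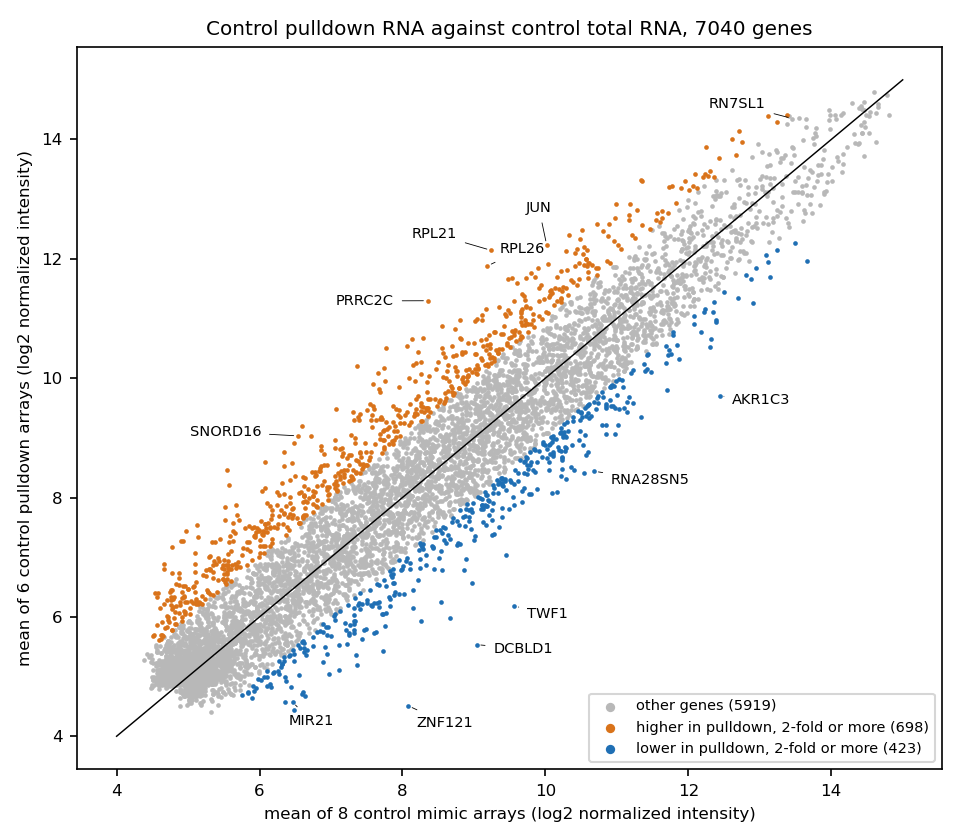
Mean log2 intensity of the 7040 kept genes over the 8 control mimic arrays (horizontal axis) and the 6 control pulldown arrays (vertical axis), with the line of equal level. Orange and blue points are the 698 genes higher and the 423 lower by at least 2-fold past the test; the farthest below the line are ZNF121, DCBLD1 and TWF1.

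Ribosomal protein messages moved both ways. Of 54 kept genes for cytosolic ribosomal proteins, the structural proteins of the ribosome, 36 were lower, 14 higher and 4 not past the test, with a median of -0.41. With the authors' values 26 were lower and 17 higher of 59 (-0.11), and with median scaling 43 were lower and 7 higher of 55 (-0.89). RPL21, a protein of the large subunit, had one of the largest increases: its level was 8.89, 9.23 and 9.56 (lowest, median, highest) on the 8 mimic arrays and 11.92, 12.15 and 12.32 on the 6 pulldown arrays. The difference was 2.91 ± 0.08 (SE), or 7.50-fold, at an adjusted p of 3.70e-12. RPL29 rose by 2.83 ± 0.11 and RPL26 by 2.69 ± 0.07. In all 3 genes every pulldown array lay above every mimic array, which the rule for the largest changes required. The members of largest decrease, named after their values were seen, were RPL14, RPS28 and RPS3A. RPS28, of the small subunit, stood at 13.56, 13.67 and 13.75 on the mimic arrays and at 11.59, 11.94 and 12.35 on the pulldown arrays, a difference of -1.70 ± 0.10 (adjusted p = 1.98e-09). RPL14 fell by 1.83 ± 0.11 and RPS3A fell by 1.45 ± 0.06, again with no overlap between the groups. Ribosomal protein genes have many near-identical processed pseudogenes, so a probe may report copies as well as the named gene.

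Ribosomal protein messages begin with a run of pyrimidines, through which their translation is regulated, so the start regions of these 6 genes are shown. Each line is 10 bases before to 20 bases after the annotated RefSeq start (GRCh38.p14), 5′ to 3′ on the gene's strand, with the run of C or T at the start in capitals.
RPL21, higher, chr13:27251548-27251577: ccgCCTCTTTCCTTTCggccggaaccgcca
RPL29, higher, chr3:51995876-51995905: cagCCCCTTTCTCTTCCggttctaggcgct
RPL26, higher, chr17:8383174-8383203: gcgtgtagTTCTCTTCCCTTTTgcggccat
RPL14, lower, chr3:40457329-40457358: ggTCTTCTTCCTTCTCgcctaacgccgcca
RPS28, lower, chr19:8321486-8321515: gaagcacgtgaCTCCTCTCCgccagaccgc
RPS3A, lower, chr4:151099618-151099647: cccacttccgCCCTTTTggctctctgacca
A run of at least 5 such letters on the gene's own strand, reaching the start base or beginning within the first bases after it, was present in 7492 of 35116 start regions in the RefSeq table (21.3%). It was present in 14 of 14 ribosomal protein genes that were higher and in 27 of 35 that were lower and matched the table. Genes of both directions carried such a run.

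The other messages of translation and energy supply leaned lower. Of 38 genes for mitochondrial ribosomal proteins, 22 were lower and 10 higher (median -0.35); MRPL50, of the large subunit, fell by 1.28 ± 0.09, from 11.24, 11.38 and 11.54 on the mimic arrays to 9.57, 10.26 and 10.31. Of 42 genes of the respiratory chain and ATP synthase, 24 were lower and 10 higher (median -0.30), and with the authors' values 20 were lower and 12 higher of 59 (-0.07). NDUFB11, a subunit of complex I, was at 10.83, 10.98 and 11.19 and at 8.99, 9.25 and 9.38, without overlap, a difference of -1.81 ± 0.08 (adjusted p = 1.88e-10). Other complex I subunits fell too, NDUFC2, detected on 3 of 6 pulldown arrays, by 1.93 and NDUFA13 by 1.56. Among 25 translation initiation and elongation factors, 14 were lower and 6 higher (median -0.25), with EIF3K, a subunit of initiation factor 3, lower by 1.07 ± 0.06. Of the 11 kept proteasome subunit genes, 8 were lower, 1 higher and 2 not past the test, with a median of -0.61. PSMB2, a subunit of the catalytic core, read 12.16, 12.39 and 12.64 on the mimic arrays and 11.10, 11.54 and 11.83 on the pulldown arrays. Its groups did not overlap, and the difference was -0.91 ± 0.07.

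Lysosomal genes gave 10 lower and 4 higher of 16 (median -0.40). ATP6V1E1, a subunit of the proton pump that acidifies lysosomes, was lower by 1.24 ± 0.05, while MCOLN1, a lysosomal calcium channel, was higher by 1.20 ± 0.11. Genes of folding and glycosylation in the endoplasmic reticulum split evenly, 14 lower and 12 higher of 28 (median -0.23). STT3B and DAD1, both subunits of the oligosaccharyltransferase that adds sugars to new proteins, fell by 1.53 and 1.43, and MLEC, which reads glucose on sugar chains there, rose by 1.46. PKM, the glycolytic pyruvate kinase, fell by 1.35 ± 0.07 within 12 hypoxia and glycolysis genes, of which 5 were lower and 2 higher. CYP51A1, a demethylase of cholesterol synthesis, read 10.08, 10.27 and 10.51 on the mimic arrays and 7.84, 8.41 and 8.59 on the pulldown arrays, a difference of -1.98. These groups did not overlap.

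Immediate early genes, which respond within minutes to growth factors and stress, leaned higher. Of the 9 kept, 5 were higher, 0 lower and 4 not past the test, with a median of 0.92; with median scaling 4 were higher and 2 lower (0.38), and with the authors' values 9 of 16 were higher and 0 lower (0.44). In the normalization used here the count with the 17 set-aside members was 17 higher and 0 lower of 26. JUN, a subunit of the AP-1 transcription factor, was at 9.74, 10.05 and 10.19 on the mimic arrays and at 11.87, 12.30 and 12.44 on the pulldown arrays. It rose by 2.21 ± 0.08, or 4.64-fold (adjusted p = 5.84e-11), and FOS, its partner, by 1.30 ± 0.12. MCL1, which blocks cell death, rose by 1.71 at its brightest probe and by 0.33 at the probe of smallest difference. Most interferon-stimulated genes, 45 of 49 tested, were set aside, so only 4 were kept, 1 higher, 2 lower and 1 not past the test. With the 45 set-aside members the count was 17 higher and 3 lower of 49. The median of the 49 was 0.77, against -0.38 for the 4 kept. CMPK2, a mitochondrial nucleotide kinase, was called higher by 0.35. It was detected on 1 of 8 mimic and 4 of 6 pulldown arrays and so passed the detection filter through the pulldown arrays alone. That call was lost with either control alone and without NC1 pulldown replicate 1 (0.28) or NC2 pulldown replicate 3 (0.30), and with median scaling CMPK2 read -0.088. TRIM21, an antibody receptor and ubiquitin ligase, fell by 0.59 and XAF1 by 0.59. With NC2 arrays alone neither was past the test (adjusted p = 0.0806 and 0.621), and XAF1 read 0.11 when the probes of the gene were averaged.

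Zinc finger genes with ZNF names, most of which encode DNA-binding repressors, gave 127 higher and 52 lower of 262 (median 0.26). The same list held one of the largest decreases: ZNF121 stood at 7.84, 8.03 and 8.63 on the mimic arrays and at 4.38, 4.45 and 4.72 on the pulldown arrays, where it was detected on 0 of 6. It was at least 8.64-fold lower, with undetected arrays set at the lowest detected signal where that is higher. It had passed the detection filter through the mimic arrays alone, so no p-value is given. ZNF768 rose by 2.09 ± 0.21. ZNF549 rose by 2.06 ± 0.20 over the 6 pulldown arrays and by 1.81 without NC1 pulldown replicate 2, which read 13.72 against 11.75 to 12.44 on the others. ITPK1-AS1, USP49, HSD17B7, LINC01018 and SLC25A51 had that same array at least 1.23 above the rest and remained past the test without it, at differences of 0.91 to 1.60. Another probe of SLC25A51 read -0.51.

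Genes of microRNA biogenesis and action, the machinery the bait is meant to enter, gave 10 higher and 4 lower of 15 (median 0.33), and with the mean of each gene's probes 7 higher and 3 lower of 16 (0.07). DGCR8, which holds the primary hairpin for cleavage in the nucleus, rose by 1.09 ± 0.10, from 8.34, 8.50 and 8.64 to 9.23, 9.57 and 10.15. CNOT7, a deadenylase recruited to microRNA targets, fell by 1.98 ± 0.13, from 11.13, 11.34 and 11.59 to 8.58, 9.45 and 9.80. Neither overlapped. PABPC1, which binds poly(A) tails, was higher by 0.96 at its brightest probe and lower by 0.66 at another; NC1 arrays alone gave 0.17 at an adjusted p of 0.249. Among 12 genes for proteins of stress granules and other RNA-protein bodies, 6 were lower and 3 higher; the median, -0.28, turned to 0.07 with the authors' own values. FXR2, a relative of the fragile X protein, rose by 1.69 and IGF2BP3, which binds and stabilizes messages, fell by 1.29. PRRC2C, a protein of stress granules outside that list, had another of the largest increases. It read 8.06, 8.36 and 8.69 on the mimic arrays and 11.06, 11.28 and 11.51 on the pulldown arrays, a difference of 2.95 ± 0.08 or 7.71-fold (adjusted p = 5.24e-12).

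**Figure D2:**
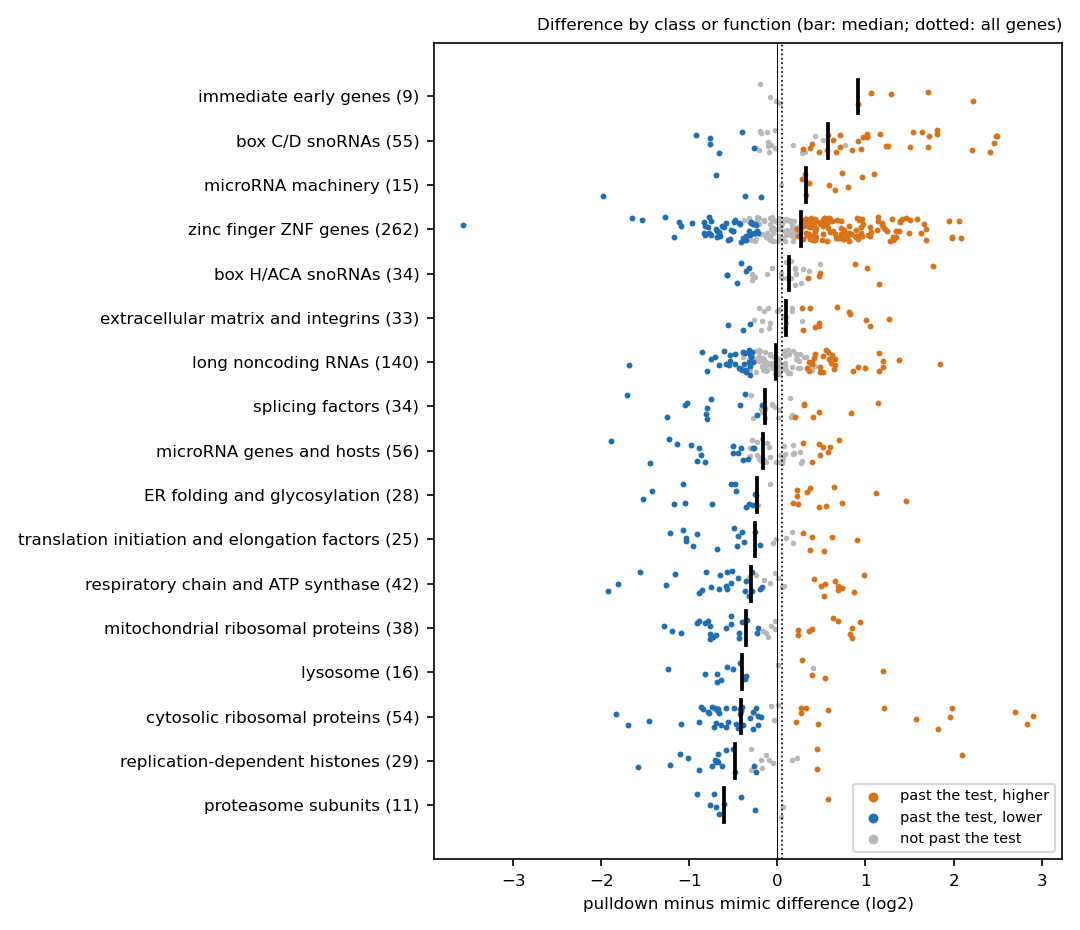
Pulldown minus mimic difference (log2) of each kept gene in 17 classes or functions, with the number of kept genes in brackets; bars are medians and the dotted line is the median of all kept genes, 0.05. Medians run from -0.61 for proteasome subunits to 0.92 for immediate early genes, and those of box H/ACA snoRNAs and of extracellular matrix genes fall below 0 with median scaling.

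Small nucleolar RNAs, which guide chemical changes of ribosomal and spliceosomal RNA, fall into types by the change they guide. Of 55 kept box C/D snoRNAs, which guide methylation, 32 were higher, 6 lower and 17 not past the test (median 0.57), and 18 were higher by at least 2-fold against 0 lower. With median scaling 27 were higher and 16 lower of 58 (0.33), and with no detection filter 40 were higher and 7 lower of 160 (0.03). Of 76 tested, 16 had passed the detection filter through the pulldown arrays alone; the 34 kept ones that passed it in both kinds had a median of 0.81. SNORD16 was at 6.27, 6.52 and 6.76 on the mimic arrays and at 8.85, 9.00 and 9.30 on the pulldown arrays. The rule for the largest changes required that these not overlap. The difference was 2.50 ± 0.12 (adjusted p = 3.29e-10), and SNORD80, SNORD21 and SNORD96A rose by 2.49, 2.46 and 2.42; SNORD21 was detected on 2 of 8 mimic arrays. Among the 6 that fell, SNORD14D was lower by 0.93 ± 0.24, with overlapping groups, and NC2 arrays alone gave -0.73 at an adjusted p of 0.0649. Box H/ACA snoRNAs, which guide pseudouridylation, gave 7 higher, 6 lower and 21 not past the test of 34, and their median of 0.13 became -0.11 with median scaling. Without NC1 pulldown replicate 2 it was -0.01, and without both pulldown arrays numbered 2 it was -0.16, with 6 higher and 10 lower. With the 30 set-aside members the box H/ACA count was 9 higher and 18 lower of 64 (median -0.01). With the 21 set-aside members the box C/D count was 38 higher and 9 lower of 76 (median 0.43). Whether the types differ was not tested. SnoRNAs lie in introns of other genes, and probes for them can also report the unspliced host.

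Of 8 kept genes for other structured small RNAs, such as Y RNAs, vault RNAs and spliceosomal RNAs, 6 were higher, 1 lower and 1 not past the test (median 0.58). With median scaling 4 were higher and 3 lower of 11 (median 0.20). Of 23 tested, 3 had passed the detection filter through the pulldown arrays alone. The 5 kept ones that passed it in both kinds had a median of 0.48. Among the 4 detected on all 14 arrays, 3 were higher and 1 lower. With the 15 set-aside members the count was 10 higher and 9 lower of 23 (median 0.18). RN7SL1, the RNA of the signal recognition particle, was among the brightest of all: 13.23, 13.44 and 13.64 on the mimic arrays and 14.22, 14.33 and 14.53 on the pulldown arrays, without overlap. It rose by 0.90 ± 0.07 (adjusted p = 1.96e-08). VTRNA2-1, a vault-like RNA, was detected on 1 of 8 mimic arrays and on 6 of 6 pulldown arrays, and rose by 1.69 ± 0.16; the authors' own values hold it at their floor on all 14 arrays. Of the Y RNAs, RNY5 rose by 1.31 ± 0.16, and RNY3 was lower by 0.97 ± 0.28 with overlapping groups; NC1 arrays alone gave RNY3 -0.54 at an adjusted p of 0.272. Among the members set aside, RN7SK and RNU4-1 had differences of -1.34 and -2.21, and RNU6-1 and RNY4 of 1.06 and 1.74. The 28S ribosomal RNA, under the symbol RNA28SN5, was lower by 2.24 ± 0.21 at its brightest probe and by 4.82 at another. It was named among the largest decreases, a choice that required no overlap between its groups. That RNA is encoded in many copies, which one probe cannot separate.

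Probes named for microRNA genes and their hosts were dim, and of 64 tested 15 had passed the filter through the pulldown arrays alone and 15 through the mimic arrays alone. Of 56 kept, 17 were lower (30.4%, against 30.5% of all kept genes) and 8 higher (14.3%, against 36.3%). The other 31 were not past the test, and the median was -0.16. With median scaling 38 were lower and 0 higher (-0.46), where all genes gave 2970 lower and 1953 higher of 7034 (-0.16). Such a probe is named for the gene, and whether it reads the mature strand, the hairpin or a longer precursor was not tested. The 5p mature strands of the members described here, as RefSeq gives them, are printed with the seed, bases 2 to 8, in capitals, to show which of them share one.
hsa-miR-21-5p: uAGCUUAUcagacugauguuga
hsa-miR-130a-5p: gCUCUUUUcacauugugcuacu
hsa-let-7d-5p: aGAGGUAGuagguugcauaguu
hsa-miR-98-5p: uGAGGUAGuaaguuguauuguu
MIR21 (chromosome 17), an abundant microRNA of cancer cells, had 6.23, 6.49 and 6.64 on the mimic arrays and 4.44, 4.58 and 4.67 on the pulldown arrays, where it was detected on 0 of 6. It was at least 2.81-fold lower, and MIR130A fell by 1.45 ± 0.11. MIR21 had passed the detection filter through the mimic arrays alone, so no p-value is given for it. The members of the let-7 family, which share the seed GAGGUAG, went opposite ways. MIRLET7D fell by 1.14 ± 0.20 and was detected on 1 of 6 pulldown arrays, and MIR98 rose by 0.70 ± 0.14. The groups overlapped in both, and NC1 arrays alone left neither past the test (adjusted p = 0.133 and 0.164).

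Long noncoding RNAs showed no lean, with 29 higher, 30 lower and 81 not past the test of 140 (median -0.01); with median scaling 72 were lower and 16 higher. NFYC-AS1 was at 7.03, 7.23 and 7.37 on the mimic arrays and at 5.18, 5.38 and 6.35 on the pulldown arrays and fell by 1.68 ± 0.15. MCM3AP-AS1 rose by 1.20 ± 0.09. Each is antisense to a coding gene, and whether its probe is free of the partner's RNA was not tested.

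Replication-dependent histone messages, which end in a stem-loop in place of a poly(A) tail, were mostly lower: 17 of 29, with 3 higher and 9 not past the test (median -0.49). With the 10 set-aside members 20 were lower and 4 higher of 39 (median -0.30). H1-2, a linker histone, stood at 12.68, 12.90 and 13.02 on the mimic arrays and at 11.34, 11.68 and 11.89 on the pulldown arrays. It fell by 1.21 ± 0.06 (adjusted p = 7.96e-10), and H2AC6 fell by 1.58 ± 0.18. H2BC11 went the other way, from 5.01, 5.56 and 6.02 to 7.34, 7.70 and 7.78, a rise of 2.10 ± 0.14. No groups overlapped in these 3. Of the 5 kept replacement histones, whose messages are polyadenylated, 3 were lower, with H3-3A down by 0.95, and 0 higher (median -0.47). With the 4 set-aside members the count was 4 lower and 0 higher of 9, and the median was 0.005. Histone genes of a cluster are near-identical in sequence, so their probes may report several. Whether the labelling copies RNA without a poly(A) tail, of any class, as fully as polyadenylated RNA was not tested.

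Cell cycle genes were mixed. DNA replication genes gave 13 higher and 11 lower of 28, with a median of 0.11 that became -0.08 with median scaling. GINS4, of the replicative helicase, rose by 1.70, CHAF1A, a histone chaperone, by 1.38, and POLD1, a DNA polymerase subunit, by 1.27. Mitotic genes gave 10 lower and 6 higher of 22, with a median of -0.13 that became 0.05 with the authors' values. UBE2C, which feeds the anaphase-promoting complex, was at 11.65, 12.00 and 12.18 on the mimic arrays and at 13.19, 13.32 and 13.44 on the pulldown arrays and rose by 1.35 ± 0.05 (adjusted p = 7.16e-11). MAD2L1, of the spindle checkpoint, fell by 0.82.

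The remaining lists leaned less or held few kept genes. Of all kept genes, 36.3% were higher and 30.5% lower. Solute carriers gave 46 higher (35.4%) and 36 lower (27.7%) of 130, with a median of 0.08 that became -0.20 with median scaling. RAB genes gave 13 higher (38.2%) and 12 lower (35.3%) of 34 (0.01, becoming -0.15). Ubiquitin-specific proteases gave 11 higher (39.3%) and 9 lower (32.1%) of 28 (-0.05). SLC35E1 rose by 2.09 ± 0.14 and SLC25A36, a mitochondrial nucleotide carrier, fell by 1.88 ± 0.13, and RAB32, which acts in the making of pigment granules, fell by 1.71. Extracellular matrix genes and integrins gave 12 higher (36.4%), 3 lower (9.09%) and 18 not past the test of 33. Their share higher was that of all kept genes, and their median of 0.09 became -0.14 with median scaling. ITGA3, an integrin for laminin, rose by 1.05 ± 0.07 at its brightest probe and another of its probes read -0.14. Splicing factors gave 12 lower and 7 higher of 34 (-0.14), with SRSF11 lower by 1.25. Cytokines gave 5 higher and 3 lower of 9 (0.34, becoming -0.06), NRF2 and iron genes 6 lower and 4 higher of 12 (-0.23, and 0.12 with the authors' values), cholesterol and fatty acid genes 3 higher and 2 lower of 8 (0.18, becoming -0.10), keratins 1 higher and 2 lower of 5 (-0.21), and snoRNA hosts 2 higher and 1 lower of 3. Of 21 cytokines tested, 5 had passed the detection filter through the pulldown arrays alone. The 3 kept cytokines that passed it in both kinds had a median of -0.82. Of 13 keratins tested, 4 had passed it through the mimic arrays alone. The 2 kept keratins that passed it in both kinds had a median of 0.44. No probe carries the name of a mitochondrially encoded RNA.

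Genes of biotin-dependent carboxylases and of the enzyme that attaches their biotin were measured here as RNA. It is biotin-carrying proteins that bind streptavidin, and not every gene counted here encodes one. Of the 5 kept genes, 3 were higher and 2 lower, with a median of 0.53 that turned to -0.13 with median scaling and to -0.43 with the authors' values. With the 4 set-aside members the count was 3 higher and 4 lower of 9 (median -0.22). ACACB, an acetyl-CoA carboxylase, rose by 1.29 ± 0.09 and HLCS, which attaches biotin to the carboxylases, by 0.76 at its brightest probe and -0.01 at another. PCCB, a propionyl-CoA carboxylase subunit, fell by 0.93 ± 0.05. Of the ferritin genes the study is about, FTL (difference 0.39) and the pseudogene FTH1P3 (difference -1.31) were among those set aside, and FTL read -0.17 with median scaling.

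**Figure D3:**
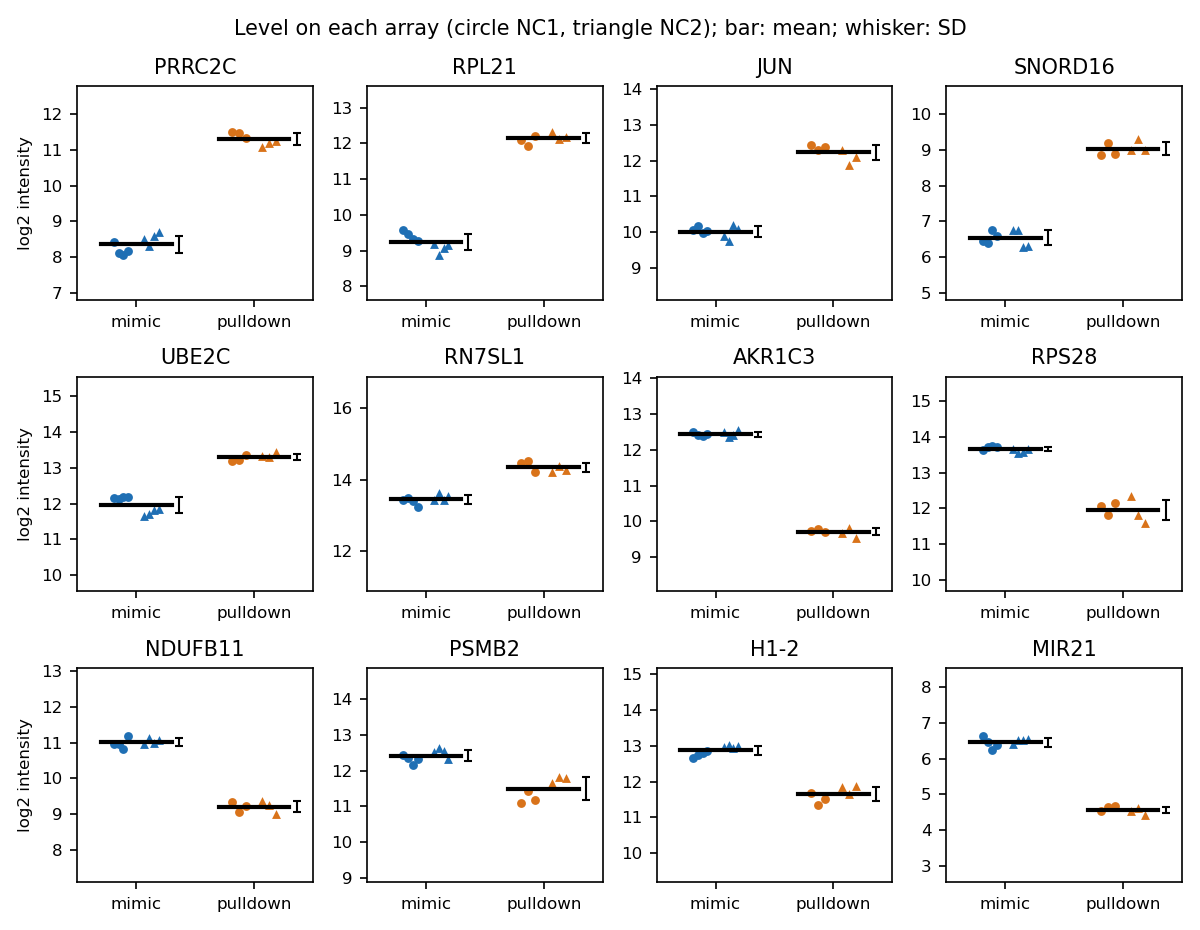
Log2 intensity of 12 genes on each of the 8 mimic arrays (blue) and 6 pulldown arrays (orange); circles are NC1, triangles NC2, bars the means and whiskers the SD. The pulldown arrays lie wholly above the mimic arrays in the first 6 genes and wholly below them in the last 6. For PRRC2C, RPL21, SNORD16 and AKR1C3 the rule for the largest changes required this.

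Single genes outside these groups filled much of both ends. Among the largest decreases were TWF1, which binds actin monomers, at 9.32, 9.53 and 9.77 and 5.96, 6.22 and 6.36, and DCBLD1, a membrane protein, at 8.84, 9.06 and 9.31 and 4.58, 5.51 and 6.77 on mimic and pulldown arrays. They fell by 3.38 ± 0.10 and 3.50 ± 0.23. AKR1C3, an enzyme of androgen synthesis, was bright and fell with little spread, from 12.35, 12.42 and 12.55 to 9.53, 9.71 and 9.80, by 2.74 ± 0.06 (adjusted p = 4.72e-13); its relatives are close in sequence. PPID, a cochaperone of HSP90, fell by 2.68 at its brightest probe and by 0.71 at another, ANXA4, which binds membranes with calcium, by 2.42, and TDP2, which repairs topoisomerase damage, by 2.40. PRIM2, the large subunit of DNA primase, KLLN, DNTTIP2, COMMD1, MRS2, a mitochondrial magnesium channel, HEBP2 and SPDYE2B made up the rest, at differences of -2.34, -2.30, -2.17, -2.14, -2.08, -2.07 and -2.28. On the pulldown arrays DCBLD1, PRIM2 and KLLN were detected on 5 of 6 and DNTTIP2 on 4 of 6.

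Other large increases were in genes of varied function. MAFG, a small Maf partner of NRF2, was at 7.53, 7.74 and 8.10 on the mimic arrays and at 10.15, 10.54 and 10.85 on the pulldown arrays and rose by 2.74 ± 0.09. BCL9L, a coactivator of beta-catenin, rose by 2.42 ± 0.08. PHF2, a histone demethylase, rose by 2.52 and HDAC7, a histone deacetylase, by 2.51 at their brightest probes, while their other probes read as low as -0.06 and 0.17. ARHGEF11 rose by 2.91, SPSB1, a ubiquitin ligase adaptor, by 2.42, PKMYT1, a kinase that restrains CDK1, by 2.61, and CCDC71 by 2.64. IL11, a cytokine, was detected on 2 of 8 mimic arrays and all pulldown arrays and rose by 2.38 ± 0.10. Probes of one gene disagreed at times: of 1318 called genes with several tested probes, 936 had all probes of one sign and 202 had probes called in opposite directions.

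Base composition of longer start regions, 250 bases before to 50 bases after the annotated start, moved little with the difference. Most of that stretch lies before the start, so it is not the composition of the RNA. Among protein-coding genes with a RefSeq start region (5418 of 6468, 83.8%), the median G and C content was 64.7% over all kept genes, 67.3% in those at least 2-fold higher and 63.0% in those at least 2-fold lower. The tenth of genes richest in G and C had a median difference of 0.30, and across genes, which are not independent replicates, Spearman's rank correlation was 0.112 as a description. Gene span was 36.5 kb at the median for the higher genes, 32.6 kb for the lower and 29.7 kb over all.

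The same contrast was measured with no shared array in the miR-638 experiment, where 3 pulldown arrays were set against 4 mimic arrays and 7454 of 12882 genes (57.9%) passed the test. Of the 4702 genes called in the control arrays, 4455 (94.7%) had the same sign there and 3521 were called in the same direction, which is 74.9% of the control calls and 85.9% of the 4098 kept genes called in the miR-638 arrays; 46 were called in the opposite one. Among the 2338 kept genes not called in the control arrays, 1518 (64.9%) had the same sign. The miR-638 arrays called 391 of them (16.7%) in that direction. Of the 1121 genes at least 2-fold apart, 1091 (97.3%) were called in the same direction. RPL21 differed by 3.04 there, JUN by 2.58, AKR1C3 by -2.60 and ZNF121 by -3.18. Box C/D snoRNAs had a median of 0.27 in the miR-638 arrays, box H/ACA snoRNAs of -0.27, cytosolic ribosomal proteins of -0.29 and proteasome subunits of -0.62. FTH1P3, set aside in the control arrays, was higher by 1.11 with the miR-638 bait. The RNA source and the experiment are confounded in this comparison as in the control one, and 1 normalization covers both.

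**Figure D4:**
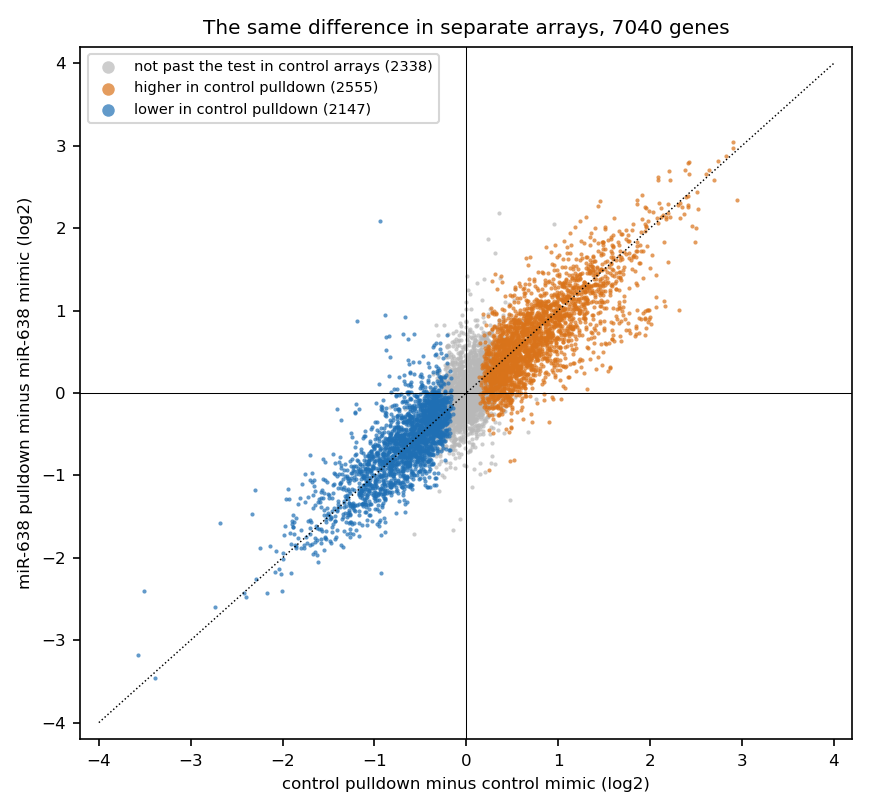
Difference in the control arrays (horizontal axis) and in the separate miR-638 arrays (vertical axis), both in log2 units, for 7040 kept genes; the dotted line marks equal differences. Of the 4702 colored genes, 4455 lie on the same side of 0 in both, as do 1518 of the 2338 others.

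Whether the difference depends on the control sequence rests on a label. The NC1 and NC2 pulldown columns are exchanged between the authors' signal table and their value table, and the names used here are those of the signal table. With them the pulldown-minus-mimic difference differed between NC2 and NC1 for 908 of 12882 genes (7.05%); with the names exchanged it did so for 132, and in the authors' value table for 57. Without NC2 pulldown replicate 3 the count was 564. The mean of both controls is the same under either naming. Its SE, adjusted p and calls rest on the spread within named groups, and they were not refitted with the names exchanged. Every value given for NC1 or NC2 arrays alone also depends on the naming. Over the mimic and pulldown arrays of one control, NC1 alone and NC2 alone gave 3895 and 3638 called genes, of which 3665 and 3440 were among the 4702.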

How the data were processed

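The deposited signal table covers 24 arrays with linear intensity values, still without normalization, and each carries a detection p-value, per the file headers; the authors' software is not given in the sources used here. The authors also deposited a value table on a log2 scale, floored at 4, made by a method not stated, and it was used as an alternative. Per the labels, RNA was extracted with Trizol and labelled as biotinylated cRNA with an Illumina kit, while the design text names another array maker.

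Intensities were corrected with neqc (limma 3.58.1, R 4.3.3) from the detection p-values with an offset of 16, quantile normalized over 24 arrays and set on a log2 scale. Probes detected (p under 0.05) on at least 3 of 6 control pulldown or 4 of 8 control mimic arrays were tested, 23100 of 47323; 727 genes passed through pulldown arrays alone and 407 through mimic arrays alone. The platform annotation names 30113 probes once, 8 several times and does not list 17202; 5676 tested probes were left unnamed. A check of symbols by gene identifier changed 0 of them. The brightest probe stood for its gene.

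Means of 4 groups were fitted with limma and a variance trend, and the mean of both pulldowns was set against the mean of both mimics. Tests were two-sided, adjusted by Benjamini-Hochberg over 12882 genes. Genes that shifted between mimic replicates 3 and 4 and replicates 1 and 2 were set aside. The number of arrays limits the precision.

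Gene lists (37) and the arrays were chosen with earlier results of these data known. Genes were named by a rule: the 15 largest called changes each way without overlap and placeholder names (72 such called genes were counted only), up to 3 called members of each list, up to 4 each way in RNA classes, FTL and FTH1P3. The 3 ribosomal proteins of largest decrease and 4 set-aside small RNAs were named after their values were seen. Residuals of same-numbered arrays correlated at 0.665 to 0.707 between the mimic groups, 0.127 to 0.565 between the pulldown groups and -0.039 to 0.027 between mimic and pulldown arrays, so replicate number does not pair the arrays compared. Sequences are RefSeq's (GRCh38.p14), and figures used matplotlib 3.10.9 in Python 3.11.15.

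Alternatives covered background correction, scaling, the detection filter, the probe taken per gene, the arrays fitted, array weights, a replicate block, the set-aside rule and the values deposited by the authors.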

Additional observations from a re-analysis of the deposited data

Results flagged for a closer look

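The pulldown-minus-mimic difference of 13 of the 101 genes named differed between NC2 and NC1 by the limma test of that difference, with the names of the signal table. NC2 minus NC1 was 1.58 for PABPC1 (adjusted p = 3.98e-05), 1.52 for IL11, 1.29 for SPSB1, 1.18 for RPL29, 1.15 for MLEC, 0.90 for PHF2, 0.87 for STT3B, 0.68 for MAD2L1, 0.56 for RPL26 and 0.50 for UBE2C, with adjusted p from 2.87e-04 to 0.0286 for those after PABPC1. It was -0.76 for MAFG, -0.70 for BCL9L and -0.61 for PRRC2C (adjusted p = 0.0235, 0.0156 and 0.039). With the names of the control pulldowns exchanged, PHF2 alone of the 13 still differed, by 1.07 (adjusted p = 0.0202), and PABPC1 read -0.25 (adjusted p = 0.535).

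One array stood apart from the other 3 of its mimic group in 10 of 202 groups of 4 examined, and chance flags about 1 in 20. The values were 5.65 for HDAC7 in NC1 mimic replicate 2 (the others read 6.25 to 6.33), 9.06 for DCBLD1 in NC1 mimic replicate 1, 11.47 for RNA28SN5 and 7.26 for SNORD14D in NC2 mimic replicate 2, and 7.05 for MIR130A in NC1 mimic replicate 4. Smaller gaps gave 8.69 for SRSF11 in NC1 mimic replicate 4 and 8.80 in NC2 mimic replicate 3, 9.42 for STT3B in NC2 mimic replicate 2, 12.27 for DAD1 in NC2 mimic replicate 3 and 13.33 for ATP6V1E1 in NC1 mimic replicate 3.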

How the results depend on the processing

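The 4702 genes that differed between control pulldown and control mimic became 8503 with no genes set aside, and the 1121 at least 2-fold apart became 2280. With the authors' processed values 4967 genes were called, of which 3483 had been called in the same direction, and 1774 were at least 2-fold apart; 3731 genes shifted between the mimic replicate pairs, 57 differed between NC2 and NC1, and 4950 differed in the miR-638 arrays. With the names of the control pulldowns exchanged, 132 genes differed between NC2 and NC1. Other planned settings kept each count within 1.5 times, except for the 564 between NC2 and NC1 without NC2 pulldown replicate 3. Median scaling gave 4923 called genes, of which 3746 were called in the same direction. Leaving out 1 array gave 4554 to 4640 called genes, 1093 to 1164 at least 2-fold apart, 5191 to 5426 shifted between mimic pairs, 564 to 839 that differed between control sequences, the lowest without NC2 pulldown replicate 3, and 6427 to 7382 in the miR-638 arrays. With replicate number as a block 4621 genes were called, 1139 of them at least 2-fold apart, 1181 differed between control sequences and 6974 in the miR-638 arrays; the numbers do not pair mimic with pulldown arrays. Leaving out both control pulldown arrays numbered 2, a choice made after seeing the data, gave 4610 called genes. Of the 101 genes named, FTL turned to -0.17, CMPK2 to -0.088 and VIM to -0.21 with median scaling and XAF1 to 0.11 with the mean of its probes; 5 were no longer past the test with NC1 arrays alone, 4 with NC2 arrays alone and 3 with the authors' values. The cause of these changes was not tested.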
